A study of Mus musculus with 18 samples.

Results

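Rhox5, also called Pem, is an X-linked homeobox gene and the founding member of the mouse reproductive homeobox cluster. It was taken by its name from the deposited FPKM table, where it is 1 of 10897 genes, and it was chosen by its measured levels, which were higher in GF-AOMS than in both other groups. Its differences between GF-AOMS and the other groups are therefore described here without a test, and the comparison of GF-AOM with Control is the one that was tested. The measurements are RNA-seq libraries of whole mouse colorectal tissue, 18 in all and 6 in each of 3 groups.

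GF-AOMS stands for germ-free mice that received azoxymethane and cigarette smoke, GF-AOM for germ-free mice that received azoxymethane, and azoxymethane (AOM) is a carcinogen used to raise colon tumours in mice. Control has more than one reading in the labels. The sample characteristics give it as wild-type, specific pathogen-free (SPF) mice with AOM-induced cancer, while the treatment protocol calls the same group a normal control. The treatment protocol does not mention germ-free status for the other groups, and the growth protocol places the animals in an SPF facility. Under either reading, smoke is what the labels place between GF-AOMS and GF-AOM. All groups were male C57BL/6J mice aged 10 weeks, with 6 mice per group and 1 labelled batch. Whether every library is a mouse of its own is not stated, and the p-values below then rest on the spread among libraries, which may be technical. The labels do not say whether tumour or adjacent mucosa was taken, and dose and length of exposure were not found in the sources used here.

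Homeobox genes encode transcription factors that bind DNA through a homeodomain. In mice, Rhox5 is known from the placenta and from gonads of both sexes, above all from the Sertoli cells of the testis. It is silent in most adult somatic tissues, where DNA methylation of its promoters takes part in the silencing, and it has been described in mouse tumour cell lines, for which it has been called oncofetal. It is transcribed from more than one promoter onto shared coding exons.

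The deposited interval of Rhox5 (ENSMUSG00000095180) is chrX:37804842-37808876 on the plus strand, in positions that match build GRCm38. GENCODE M21 places 4 exons there with 754 exonic bases, and counts and FPKM together imply a length of 757 to 764 bases. The first exon of this model begins 9 bases before the start codon at position 37804851, and the coding sequence has 630 bases (210 codons). RefSeq (GRCm38.p6) begins the gene at position 37754608, 50234 bases upstream of the counted interval, with 0 other RefSeq genes in that stretch. The counts thus read the coding exons and the end of the gene, and they do not show which start was used.

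The stretch just upstream of the RefSeq start is printed because it lies outside the counted interval and holds the letters of known promoter elements. It is chrX:37754358-37754607 on the plus strand of GRCm38.p6, from RefSeq, 5′ to 3′ and ending at the base before the start. Capitals mark a GC box (GGCGGG, the motif of Sp1) and an Ets-type element (CCGGAA, read here on the minus strand).
Rhox5 upstream sequence: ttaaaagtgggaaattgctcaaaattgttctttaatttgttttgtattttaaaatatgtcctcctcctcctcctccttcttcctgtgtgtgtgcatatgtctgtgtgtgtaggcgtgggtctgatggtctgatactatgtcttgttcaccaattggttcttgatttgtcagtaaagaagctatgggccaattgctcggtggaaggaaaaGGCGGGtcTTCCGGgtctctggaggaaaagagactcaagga

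Motifs were searched on both strands in windows of 250 bases before and 50 bases from each RefSeq start, 32851 windows in all. The GC box begins 41 bases before the Rhox5 start, and 35.3% of all windows hold GGCGGG. The Ets-type element CCGGAA begins 33 bases before the start, and 14.9% of all windows hold it. Its core GGAA occurs 6 times in the Rhox5 window, once inside that element, and 96.0% of windows hold at least 1. The window has 3 matches of CCAAT (in 37.4% of windows) and 0 of TATAAA (13.6%). It holds 5 CG dinucleotides, the letters that DNA methylation acts on, against a median of 7 over all windows, and 38.0% of windows hold fewer. Its G and C content was 43.7% against a median of 52.7%. These matches describe letters and not binding.

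The total count per library ran from 48.95 M to 79.23 M, where M stands for mega, and scaling by the trimmed mean of M-values (TMM) gave factors of 0.72 to 1.16. Factors were under 0.9 in 5 libraries, GF-AOMS 1 and 2, GF-AOM 3 and 6, and Control 2. GF-AOMS 2 stood apart, with the lowest factor (0.721) and the highest share of counts from ribosomal protein genes (26.2%, where the 18 libraries ran from 5.19% to 26.2%). The colon position gene Hoxa13, a marker of the distal colon, lay at 24.7 to 50.1 CPM in GF-AOMS and 34.5 to 53.5 CPM in GF-AOM. In Control it lay at 42.0 and 38.7 CPM in replicates 1 and 2 but at 0 to 3.05 CPM in replicates 3 to 6. Hoxb13, also of the distal colon, lay at 19.8 CPM in GF-AOMS 2 and at 157.8 to 292.0 CPM in the other GF-AOMS libraries. In GF-AOM it lay at 52.9 and 43.3 CPM in replicates 4 and 6 and at 115.2 to 190.1 CPM in the others. In Control it lay at 122.1 and 330.2 CPM in replicates 1 and 2 and at 2.43 to 2.65 CPM in replicates 3 to 6. Rhox5 CPM was highest in GF-AOMS 2 and, within GF-AOM, lowest in replicates 4 and 6. The part of position in this was not tested.

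Rhox5 was detected in every library, at FPKM values of 1.29 or more (FPKM, fragments per kilobase of exon scaled to sequencing depth, was computed by the authors). In the order of replicates 1 to 6, its read counts were 146, 277, 263, 296, 231 and 231 in GF-AOMS. They were 119, 120, 120, 57, 147 and 78 in GF-AOM, and 109, 83, 123, 112, 115 and 178 in Control. The unscaled counts overlapped narrowly, since GF-AOM 5 with 147 and Control 6, the largest library, with 178 exceeded GF-AOMS 1 with 146.

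Divided by TMM-scaled library size, Rhox5 had 2.99, 7.85, 4.09, 5.13, 3.82 and 4.00 counts per M counts (CPM) in GF-AOMS. It had 2.17, 1.96, 2.26, 1.01, 2.39 and 1.64 CPM in GF-AOM, and 1.99, 1.45, 2.20, 2.19, 1.99 and 2.22 CPM in Control. All 6 GF-AOMS libraries lay above all 12 others, and GF-AOM and Control overlapped over most of their range. The nearest pair was GF-AOMS 1 and GF-AOM 5, a ratio of 1.25, and their exact 95% Poisson intervals overlapped at 2.53 to 3.52 CPM in GF-AOMS 1 and 2.02 to 2.81 CPM in GF-AOM 5. Such intervals cover counting error only.

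**Figure D1:**
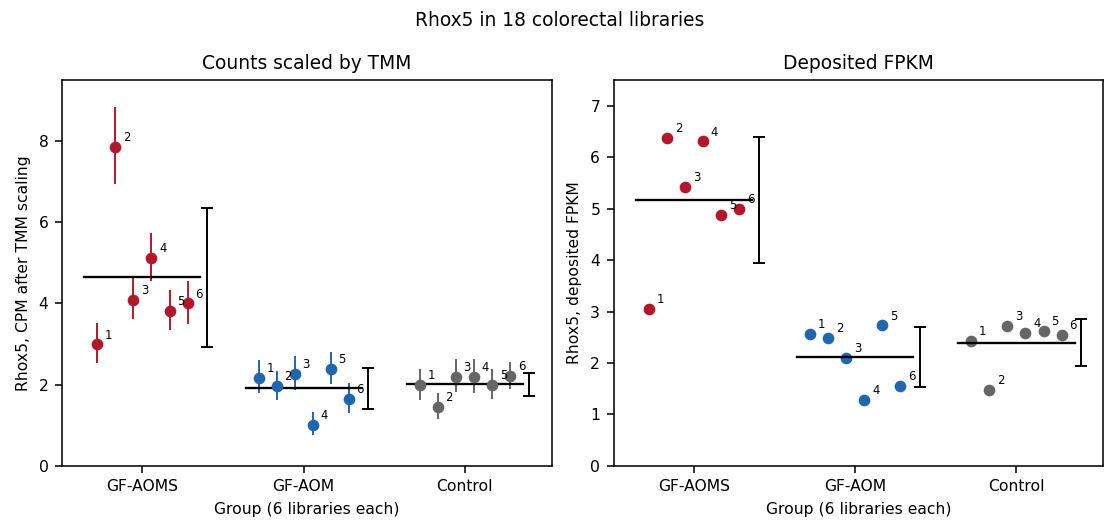
Rhox5 in each library as CPM after TMM scaling (left, vertical lines on the points are 95% Poisson intervals) and as deposited FPKM (right), with replicate numbers beside the points and black lines for the group mean and SD (n = 6). Every GF-AOMS library sits above every GF-AOM and Control library on both scales, and GF-AOMS 2 is at the top with 7.85 CPM.

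On the deposited FPKM scale the same libraries had 3.05, 6.38, 5.42, 6.31, 4.89 and 5.00 in GF-AOMS. FPKM values were 2.56, 2.49, 2.09, 1.29, 2.73 and 1.55 in GF-AOM, and 2.43, 1.48, 2.72, 2.59, 2.63 and 2.54 in Control. The groups did not overlap on this scale either, with the lowest GF-AOMS value 1.12 times the highest of the other 12. GF-AOMS 2 stood out less here, at 6.38 beside 6.31 FPKM in GF-AOMS 4.

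Rhox5 averaged 4.65 ± 1.71 CPM in GF-AOMS, 1.91 ± 0.509 CPM in GF-AOM and 2.01 ± 0.291 CPM in Control (SD, n = 6 each). The mean of GF-AOMS was 2.44 times that of GF-AOM and 2.32 times that of Control in CPM. In FPKM the averages were 5.18 ± 1.22 in GF-AOMS, 2.12 ± 0.588 in GF-AOM and 2.40 ± 0.461 in Control (SD, n = 6 each), and the ratios were 2.44 and 2.16. The fitted log2 difference was 1.28 (SE 0.24) for GF-AOMS minus GF-AOM and 1.21 (SE 0.24) for GF-AOMS minus Control, both given as a description. These differences share the GF-AOMS libraries. Without GF-AOMS 2 they were 1.07 and 1.00. In bulk tissue, fewer cells of a type and less RNA per cell cannot be told apart, and this holds for every level given here.

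The comparison that did not enter the choice of the gene was GF-AOM minus Control. Rhox5 had a log2 difference of -0.07 there (SE 0.24), with an adjusted p of 0.875 by edgeR's quasi-likelihood test over all genes, so no difference was detected beyond the spread. The ratio of means was 0.95 in CPM and 0.883 in FPKM. Its sign was not stable, since it was 0.06 without GF-AOM 4, the lowest library of all. With a term for colon position it was 0.16 (SE 0.30), and 0.15 (SE 0.37) when the 4 Control libraries low in Hoxa13 were left out. Within Control, Rhox5 was at 2.43 and 1.48 FPKM in replicates 1 and 2, where Hoxa13 was high, and at 2.54 to 2.72 FPKM in replicates 3 to 6, where it was low. Replicates 1 and 2 were the lowest of the 6 in CPM as well. The part of colon position in the difference between GF-AOM and Control was not tested beyond these fits.

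The spread of Rhox5 differed in size between groups. Its coefficient of variation in CPM was 36.8% in GF-AOMS, 26.7% in GF-AOM and 14.5% in Control, where counting error alone gives 6.45% in GF-AOMS, 9.67% in GF-AOM and 9.13% in Control. In FPKM it was 23.6% in GF-AOMS, 27.8% in GF-AOM and 19.21% in Control, and GF-AOMS 2, with its TMM factor of 0.721, read 7.85 CPM after TMM scaling and 5.66 CPM by library total. The biological coefficient of variation that edgeR estimated for Rhox5 over all libraries was 29.5%, against 41.6% on its trend for genes of the same abundance.

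Rhox5 was a low to middling transcript of this tissue. Its mean FPKM exceeded that of 38.8% of genes in GF-AOMS, 10.3% in GF-AOM and 12.4% in Control. The median gene stood at 7.21 FPKM in GF-AOMS, 7.00 FPKM in GF-AOM and 7.60 FPKM in Control, above Rhox5 in each. The deposited table itself holds few low genes, since every gene in it reached 1 FPKM in at least 15 of the 18 libraries, and Rhox5 did so in all 18.

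Few genes of the table separated GF-AOMS from all other libraries. All 6 GF-AOMS libraries lay above all 12 others in CPM for 2 genes (0.0184% of those in the table), Rhox5 and the osteopontin gene Spp1, and below all others for 0 genes. Against GF-AOM alone 6 genes (0.0551%) lay wholly above, and against Control alone 28 genes (0.257%). Rhox5 was chosen for this pattern, so nothing is read from its place among them.

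Of the other 31 genes listed for the Rhox cluster, 0 had a row in the deposited table, so whether neighbouring members of the family moved with Rhox5 was not analysed here. Of 207 other homeobox genes listed, 33 had a row. The levels were led in each group by Cdx1 and Cdx2, which encode intestinal identity factors, followed in GF-AOMS and GF-AOM by Hoxb13 of the distal colon. Per length, Rhox5 ranked 16 of 34 by mean FPKM in GF-AOMS, 29 of 34 in GF-AOM and 27 of 34 in Control.

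In GF-AOMS its neighbours in that order were Hoxa11 with 5.22 ± 1.61 FPKM above and Zhx1 with 4.40 ± 0.996 FPKM below (SD, n = 6), and both lay within 1 SD of Rhox5. In GF-AOM it lay just above Mkx at a mean of 2.03 FPKM, and in Control between Meis3 at 2.46 FPKM and Meox1 at 2.39 FPKM. None of these neighbours differed from Rhox5 by more than their spread over libraries.

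**Figure D2:**
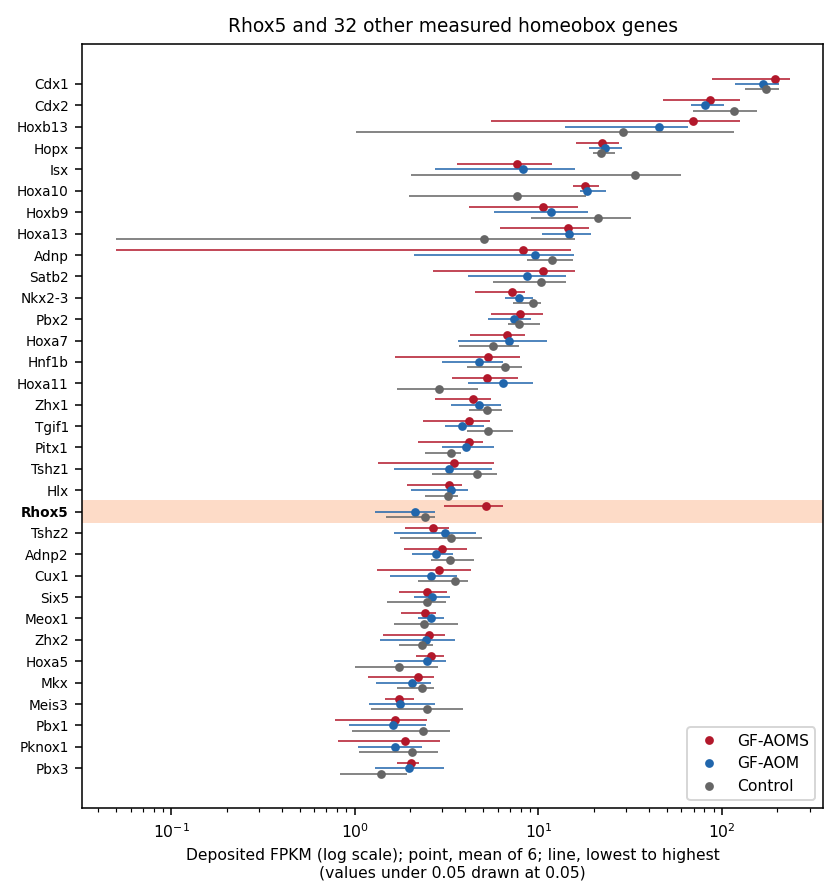
Deposited FPKM of Rhox5 and of 32 of the 33 other measured homeobox genes on a log axis, with the mean of 6 libraries as a point and the lowest to highest library as a line. Rhox5 (shaded) reads 5.18 FPKM in GF-AOMS, 2.12 FPKM in GF-AOM and 2.40 FPKM in Control, and its GF-AOMS line does not meet the other lines.

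No other homeobox gene was called in any comparison by edgeR's quasi-likelihood test at an adjusted p under 0.05. The background of calls over all genes was 0.0% for GF-AOMS minus GF-AOM (0 of 10897, with 119 genes at an unadjusted p under 0.05 and 3 called by DESeq2). It was 0.734% for GF-AOMS minus Control (80 genes, and 0 to 493 as single libraries were left out) and 0.00918% for GF-AOM minus Control (1 gene, and 0 to 356). At these rates 0 calls among 33 genes is not a result about homeobox genes. The same holds for the 0 calls given for the gene lists below.

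The median log2 difference of the 33 homeobox genes was 0.02 for GF-AOMS minus GF-AOM (19 positive), -0.05 for GF-AOMS minus Control (16 positive) and -0.07 for GF-AOM minus Control (14 positive). Over all genes the medians were 0.01, 0.006 and -0.004 in the same order of comparisons. The smallest p for GF-AOMS minus GF-AOM belonged to Nkx2-3, a factor of gut mesenchyme (-0.16, SE 0.09), Cdx1 (0.17, SE 0.13) and Zhx1 (-0.14, SE 0.11). For GF-AOMS minus Control it belonged to Isx, an intestinal regulator of vitamin A uptake (-2.06, SE 0.58), Hoxb9 (-0.99, SE 0.29) and Nkx2-3 (-0.32, SE 0.09). None of these values passed.

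Enzymes and readers of DNA methylation and repressive histone marks had 33 of 44 listed members in the table and 0 calls in any comparison. For GF-AOMS minus GF-AOM 25 members were positive and 8 negative, with a median log2 difference of 0.07. The maintenance methyltransferase Dnmt1 averaged 47.9 CPM in GF-AOMS (SD 16.9, n = 6) and 38.0 CPM in GF-AOM (SD 8.0, n = 6), with a log2 difference of 0.33 (SE 0.24). The histone methyltransferase gene Ehmt2 had a difference of 0.13 (SE 0.08) and Setdb1 one of 0.16 (SE 0.11). None of the 3 passed. For GF-AOMS minus Control the median was 0.0004 with 17 of 33 positive, and for GF-AOM minus Control it was -0.07 with 12 positive. DNA methylation itself was not analysed here.

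Factors reported to act on Rhox5 promoters in mouse cells had 14 of 18 listed members in the table, among them the Ets factors Gabpa, Gabpb1 and Elf1, the GC box factor Sp1 and the Ras genes. There were 0 calls. For GF-AOMS minus GF-AOM 6 were positive and 8 negative with a median log2 difference of -0.01, and the smallest p belonged to the immediate early gene Egr1 (0.50, SE 0.35), Elk4 (-0.09, SE 0.15) and Gabpb1 (-0.07, SE 0.14). Gabpa averaged 37.2 ± 4.74 CPM in GF-AOMS, 38.3 ± 4.19 CPM in GF-AOM and 39.5 ± 2.37 CPM in Control (SD, n = 6), so the groups overlapped. For GF-AOMS minus Control 3 were positive and 11 negative with a median of -0.12, led by Gabpb1 (-0.32, SE 0.14), Hras (0.46, SE 0.29) and Elf1 (-0.21, SE 0.14).

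Genes reported downstream of Rhox5 in mouse Sertoli cells, which fall under netrin receptor signalling and metabolism, had 7 of 14 listed members in the table and 0 calls. Unc5c, a netrin receptor gene known to be repressed by RHOX5 in those cells, had no row. For GF-AOMS minus GF-AOM the median log2 difference was 0.01, and the values ran from -0.27 for Mdfic (SE 0.13) to 0.04 for Neo1 (SE 0.20). The related receptor gene Unc5b averaged 27.3 ± 8.69 CPM in GF-AOMS, 26.9 ± 5.83 CPM in GF-AOM and 51.8 ± 18.1 CPM in Control (SD, n = 6). Its difference was 0.02 (SE 0.25) for GF-AOMS minus GF-AOM and -0.92 (SE 0.25, adjusted p = 0.0955 by edgeR) for GF-AOMS minus Control, with GF-AOM minus Control at -0.94 (SE 0.25). Pparg, the nuclear receptor of fat cells and colonocytes, had the same shape, at -0.03 (SE 0.23) for GF-AOMS minus GF-AOM and -0.79 (SE 0.23) for GF-AOMS minus Control. Neither passed.

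Other genes that adult somatic tissue mostly lacks were rare in the table. Of 75 germline and cancer-testis genes listed, 5 had a row, Taf9b, Maged1, Maged2, Mageh1 and Igf2bp2, most of which somatic tissues also express. For GF-AOMS minus GF-AOM 1 of the 5 was positive, with a median log2 difference of -0.23, and for GF-AOMS minus Control 0 were positive, with a median of -0.30. Of 25 placenta and trophoblast genes 6 had a row, several of them keratin and epithelial genes of the colon, with medians of -0.03 for GF-AOMS minus GF-AOM and -0.20 for GF-AOMS minus Control. None of these 11 genes was called in any comparison.

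Proliferation genes lay on the positive side for GF-AOMS minus GF-AOM without passing. All 24 listed members were measured, and all had positive values for GF-AOMS minus GF-AOM, with a median log2 difference of 0.27 where the median over all genes was 0.01 and 53.6% of all genes were positive. The mitotic kinase gene Aurkb had 0.51 (SE 0.28), the spindle checkpoint gene Bub1b 0.42 (SE 0.23) and the replication helicase gene Mcm7 0.25 (SE 0.16), and 0 of 24 were called. For GF-AOMS minus Control 23 of the 24 were positive, with a median of 0.11. For GF-AOM minus Control 3 were positive and 21 negative, with a median of -0.18. The summed level of the 24 ran from 964.2 to 1729 CPM in GF-AOMS, from 903.1 to 1391 CPM in GF-AOM and from 867.2 to 1632 CPM in Control. The groups thus overlapped. The part of proliferation in the Rhox5 levels was not tested. Crypt and Wnt target genes had 11 of 19 listed members in the table and 0 calls. For GF-AOMS minus GF-AOM 8 were positive and 3 negative, with a median log2 difference of 0.08. For GF-AOMS minus Control 4 were positive and 7 negative, with a median of -0.17. Myc had the smallest p of them for GF-AOMS minus GF-AOM, at a log2 difference of 0.45 (SE 0.16) that did not pass. It averaged 38.5 CPM in GF-AOMS (SD 9.99, n = 6) and 28.3 CPM in GF-AOM (SD 5.84, n = 6).

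Markers of cell types were set beside Rhox5 in the same way. Between GF-AOMS and GF-AOM no marker was called, where 0 of all 10897 genes were. Macrophage and monocyte markers were negative in 10 of 12 (median log2 difference -0.34), B and plasma cell markers had a median of -0.29, and endothelial markers were negative in 9 of 9 (median -0.20). For GF-AOMS minus Control, macrophage and monocyte markers had a median of 0.18 (7 of 12 positive). B and plasma cell markers had 0.44 there (9 of 10 positive), and endothelial markers -0.55 (2 of 9 positive). For GF-AOMS minus GF-AOM, absorptive colonocyte markers had a median of 0.05. The mast cell list was the one with the largest median, with 3 of 8 members in the table, the mucosal mast cell protease genes Mcpt2 (2.06, SE 1.00) and Mcpt1 (1.82, SE 1.05), and Kit (0.03, SE 0.29). The summed level of these 3 ran from 69.0 to 373.4 CPM in GF-AOMS, from 26.3 to 211.3 CPM in GF-AOM and from 55.7 to 115.5 CPM in Control. The part of mast cells in the Rhox5 level was not tested.

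In GF-AOMS, 0.624% of all genes were called lower than in Control. Of 242 measured list members, X-linked genes not counted, 6 fell by edgeR's quasi-likelihood test in this comparison. They were the colonocyte genes Car1 (-3.91), Cdhr5 (-1.34) and Cdhr2 (-1.26), the enteroendocrine granule genes Chga (-1.98) and Chgb (-1.88), and the lipoprotein lipase gene Lpl (-2.03), as log2 differences with adjusted p of 0.0304 to 0.0446. The count was 19 without Control 2, 2 without Control 5, and 0 without any 1 of Control 3, 4 and 6 and GF-AOMS 1, 2, 4, 5 and 6. None of the 6 was called with colon position in the model or without the 4 Control libraries low in Hoxa13. Other members of these lists went the other way. For GF-AOMS minus Control 4 of 18 colonocyte markers were positive (median log2 difference -0.56). Of the enteroendocrine markers 3 of 8 were positive (median -0.28), and of the adipocyte markers 0 of 4 (median -2.03). Summed colonocyte markers ran from 6019 to 9629 CPM in GF-AOMS, from 5178 to 9467 CPM in GF-AOM and from 10726 to 35104 CPM in Control. The part of these cell types in the Rhox5 levels was not tested.

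**Figure D3:**
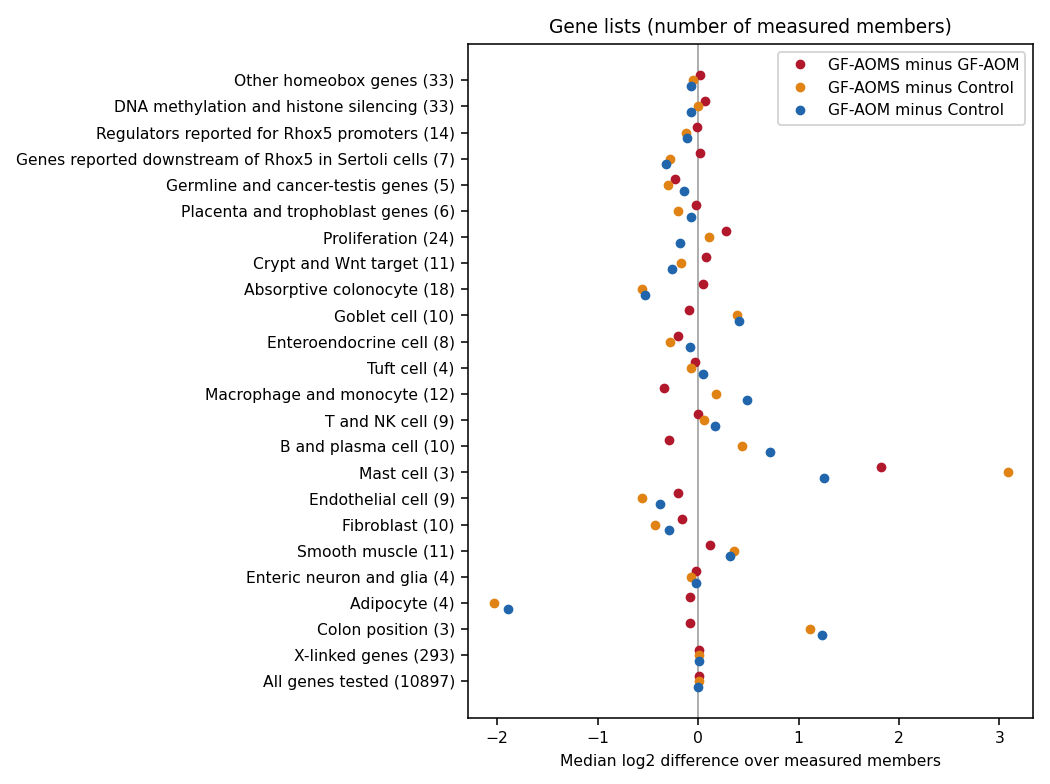
Median log2 difference over the measured members of each gene list for the 3 comparisons, with the number of measured members in brackets and all genes at the bottom. Most medians for GF-AOMS minus GF-AOM lie near 0, with proliferation at 0.27 and the 3 mast cell genes at 1.82.

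The rest of chromosome X was set beside Rhox5. Besides Rhox5, 293 X-linked genes had a row. For GF-AOMS minus GF-AOM 157 were positive and 136 negative, with a median log2 difference of 0.008 and 0 calls. The values ran from -1.28 for S100g to 0.98 for Erdr1, with Rhox5 at 1.28. In GF-AOMS against Control they ran from -2.22 for S100g to 1.81 for Erdr1, and Rhox5 at 1.21 lay within that range. For GF-AOMS minus Control 2 rose and 0 fell by edgeR's quasi-likelihood test, where 0.11% of all genes were called higher. They were the cold-inducible RNA-binding protein gene Rbm3 (0.97, SE 0.21, adjusted p = 0.042) and Ccdc22, which encodes a subunit of an endosomal sorting complex (0.40, SE 0.09, adjusted p = 0.0495). Neither was called for GF-AOMS minus GF-AOM, and Rbm3 averaged 645 ± 167 CPM in GF-AOMS, 658.7 ± 177 CPM in GF-AOM and 328.9 ± 81.9 CPM in Control (SD, n = 6). Ccdc22 kept its call in 5 of 30 alternative settings and Rbm3 in 13 of 31.

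The measured genes nearest to Rhox5 are not close to it. Upstream they were Rpl39 at a gap of 719 kb, Upf3b at 695 kb, Nkap at 654 kb, Ndufa1 at 614 kb and Rnf113a1 at 612 kb. Downstream they were Zbtb33 at 381 kb, Lamp2 at 592 kb, Cul4b at 724 kb, Mcts1 at 792 kb and C1galt1c1 at 822 kb. None was called in any comparison, and for GF-AOMS minus GF-AOM their log2 differences ran from -0.15 for Lamp2 to 0.18 for Nkap. The nearest, Zbtb33, encodes Kaiso, a repressor that binds methylated DNA. It averaged 24.9 ± 5.54 CPM in GF-AOMS, 27.0 ± 4.65 CPM in GF-AOM and 29.1 ± 1.69 CPM in Control (SD, n = 6), a difference of -0.11 (SE 0.15) for GF-AOMS minus GF-AOM. Rpl39, a ribosomal protein gene, had 1.05 (SE 0.58) for GF-AOMS minus Control with an adjusted p of 0.366 by edgeR, and -0.01 (SE 0.57) for GF-AOMS minus GF-AOM.

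**Figure D4:**
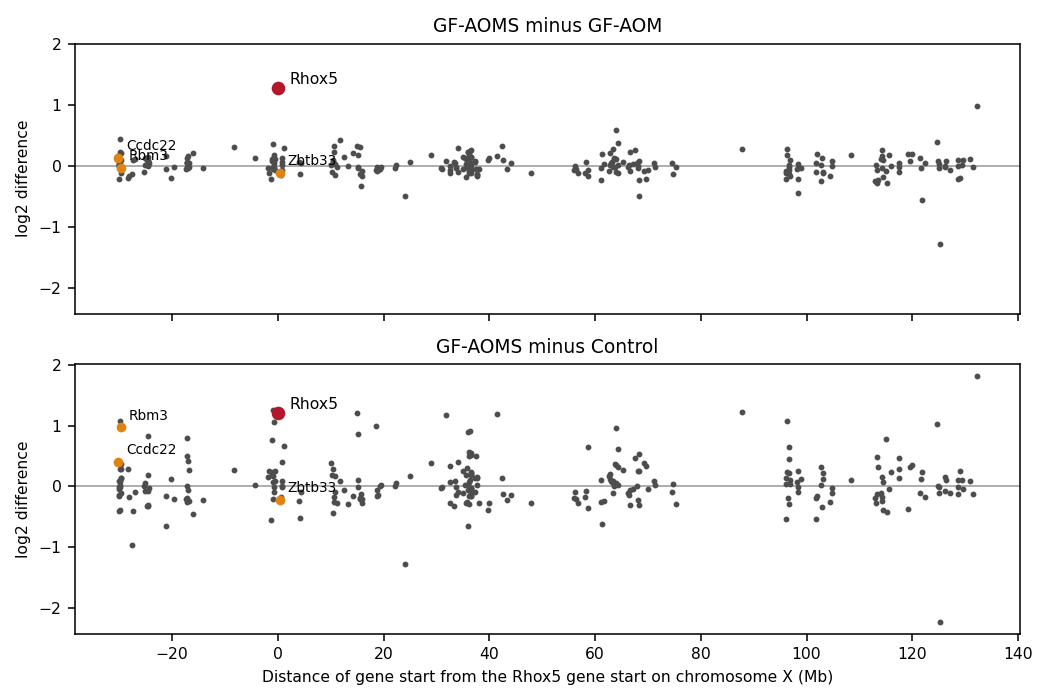
log2 difference of Rhox5 (red) and of 293 other X-linked genes by distance of their start from the Rhox5 start, for GF-AOMS minus GF-AOM (top) and GF-AOMS minus Control (bottom). Rhox5 stands at 1.28 and 1.21 while its nearest measured neighbours, Zbtb33 among them, lie near 0 in the top panel. Other X-linked genes also lie far from 0, with Erdr1 at 0.98 and 1.81 and S100g at -1.28 and -2.22.

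The genes whose log2 CPM was most like that of Rhox5 over the 18 libraries were named by Pearson's r, given as a description. The points share their libraries, the scaling and the group structure. Spp1, which encodes the secreted phosphoprotein osteopontin, was first with r = 0.87, followed by Serpinf1 for pigment epithelium-derived factor (0.82), Uimc1 for a ubiquitin-binding subunit of a BRCA1 complex (0.80) and Ccl2 for a monocyte-attracting chemokine (0.79). Cnot10 of the CCR4-NOT deadenylase complex had 0.77, the nucleotide hydrolase gene Dnph1 0.76, the mitochondrial ribosome factor gene Rbfa 0.73 and the diphthamide synthesis gene Dph2 0.72. Among the same ranks 2 genes known only by clone or pseudogene names are not listed. Without GF-AOMS 2, r was 0.81 for Spp1, 0.73 for Serpinf1, 0.69 for Uimc1 and 0.72 for Ccl2.

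Spp1 had a lowest, median and highest level of 16.2, 26.6 and 46.4 CPM in GF-AOMS. The corresponding levels were 6.62, 8.68 and 14.9 CPM in GF-AOM, and 5.55, 9.31 and 13.5 CPM in Control. As for Rhox5, GF-AOMS did not overlap the other groups and GF-AOMS 2 was highest. Uimc1 ran from 124.2 to 470.2 CPM in GF-AOMS, from 81.4 to 144 CPM in GF-AOM and from 65.8 to 120 CPM in Control. Its GF-AOMS range overlapped that of GF-AOM, since GF-AOM 3 (129.4 CPM) and GF-AOM 6 (144 CPM) lay above GF-AOMS 1 (124.2 CPM). Ccl2 had medians of 6.73 CPM in GF-AOMS, 2.25 CPM in GF-AOM and 3.61 CPM in Control, with overlap. The log2 difference for GF-AOMS minus GF-AOM was 1.57 (SE 0.30) for Spp1, 1.19 (SE 0.26) for Uimc1 and 1.64 (SE 0.40) for Ccl2. Cnot10, Dnph1, Rbfa and Dph2 had smaller ones, between 0.10 and 0.40. These genes were picked for likeness to Rhox5, so their differences are values with no test.

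A likeness within groups was measured after the group means were taken off each gene. The highest r over 18 libraries then belonged to the mitochondrial release factor gene Mtrf1 (0.78), Rnaseh2b of a ribonuclease complex (0.78), Echdc2 of the enoyl-CoA hydratase family (0.78), the protein kinase A partner gene Akip1 (0.77) and Leng8 (0.75). Rbfa, Anapc5 of the anaphase-promoting complex and Serpinf1 each had 0.72. The lowest belonged to Rp2 (-0.85), a GTPase activator gene on chromosome X, Fmr1 (-0.84), also on chromosome X, which encodes an RNA-binding protein, the phosphoinositide phosphatase gene Sacm1l (-0.83) and the cargo receptor gene Tmed7 (-0.80). Spp1 had 0.55 and Ccl2 0.55 on this measure, below their values over the levels themselves.

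GF-AOMS 2 was the highest of the 18 libraries for Mtrf1, Rnaseh2b, Echdc2, Akip1 and Leng8 and the lowest for Rp2, Fmr1, Sacm1l and Tmed7. Without it r was 0.65 for Mtrf1, 0.66 for Rnaseh2b and 0.64 for Echdc2, and was -0.78 for Rp2, -0.78 for Fmr1 and -0.67 for Tmed7. None of the genes named only by the within-group measure had a log2 difference for GF-AOMS minus GF-AOM beyond -0.04 on the negative side or 0.12 on the positive side.

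**Figure D5:**
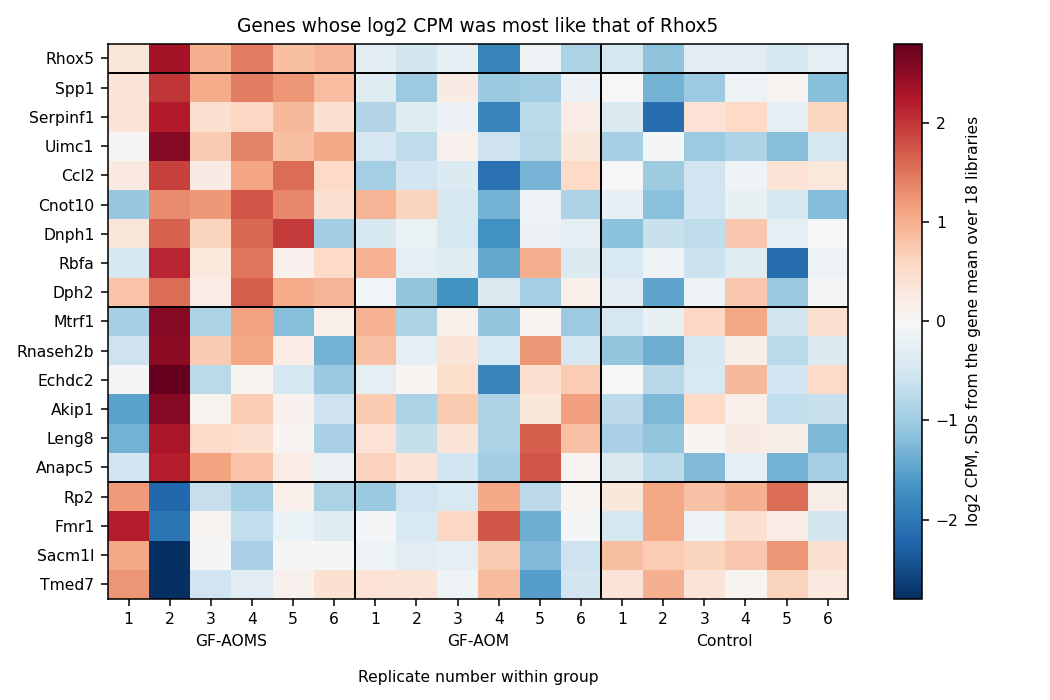
log2 CPM of Rhox5 and of the genes named for likeness to it, each in SDs from its own mean over 18 libraries, with GF-AOMS, GF-AOM and Control side by side. The upper block (r of 0.72 to 0.87 over all libraries) is mostly red in GF-AOMS, while the middle and bottom blocks (named after group means were taken off) stand out in GF-AOMS 2.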

How the data were processed

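Total RNA of mouse colorectal tissue was measured in 18 strand-specific, ribosomal RNA-depleted libraries, per the labels' protocols, with RNA integrity numbers of 7 or more. The deposited table holds whole-number read counts per gene, per the file headers, and FPKM values that the authors computed for the same 10897 genes. The submitters' processing notes name featureCounts, DESeq2 and build GRCm39, while the deposited gene positions match GENCODE M21, an annotation of GRCm38. Aligner and versions: not given in the sources used here. Rhox5 reached 1 FPKM in all 18 libraries.

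One edgeR model (version 4.0.16, R 4.3.3) held the 18 libraries, scaled by TMM, without covariates and with 15 residual degrees of freedom, and its quasi-likelihood test was two-sided. A gene was called where its Benjamini-Hochberg adjusted p, taken over the whole table, was under 0.05, and the filter of 1 FPKM in 6 libraries removed no gene. CPM uses TMM-scaled library sizes, and correlations use log2 CPM with a prior count of 2. Libraries held 48.95 M to 79.23 M counts, and intervals of Rhox5 are exact Poisson intervals at 95%. The fit was tested on counts simulated gene by gene from the mean levels and fitted dispersions, without shifts shared by the genes of a library. Its outcome is not reported here, and it does not bear on how calls change as libraries are left out.

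Groups follow the sample titles. The members, the 23 gene lists and the tests were chosen with earlier results of these data known, and several lists draw on what is known of Rhox5 in other tissues. Genes were named by a rule: the 8 of known symbol with the highest Pearson r to Rhox5, the 8 highest and 4 lowest after group means were taken off, the 5 nearest measured genes on each side, called X-linked genes, called list members and the 3 list members with the smallest p. Hoxa13, Hoxb13, Cdx2, Gabpa, S100g, Erdr1 and the homeobox genes next to Rhox5 in level were named outside it, after their values were seen. Values of some listed genes and of 1 motif are not reported here. Alternatives were DESeq2 1.42.0, limma 3.58.1 on log2(FPKM + 1) and log2(FPKM + 0.1), other scalings and filters, fits of only the 2 groups compared, a replicate block, a colon position term (mean log2 CPM of Hoxa13 and Hoxb13), and leaving out libraries.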

Additional observations from a re-analysis of the deposited data

Results flagged for a closer look

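Single libraries stood apart from the other 5 of their group by Dixon's test in 10 of 90 groups of values examined. Chance flags about 1 in 20 of independent groups, but these groups share libraries and are no fair sample. Many are genes picked for likeness to Rhox5, itself highest in GF-AOMS 2, and Rhox5 enters in both CPM and FPKM. Nothing is therefore read from the number of flags. Rhox5 itself was low in Control 2, at 1.45 CPM with the next Control library at 1.99 CPM, and likewise in FPKM, at 1.48 with the next at 2.43. Control 2 is also 1 of the 5 libraries with a TMM factor under 0.9.

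GF-AOMS 2, the library with the highest Rhox5 CPM and the lowest TMM factor, stood apart for 4 of the genes named for likeness to Rhox5. Serpinf1 was at 15.6 CPM there (next 11.2), Uimc1 at 470.2 CPM (next 252.4), Echdc2 at 15.3 CPM (next 9.81) and Leng8 at 64.8 CPM (next 34.4). Among the neighbours of Rhox5 on chromosome X, GF-AOMS 1 was high for Lamp2, at 260.2 CPM (next 193.9), and for C1galt1c1, at 124.7 CPM (next 74.4). Dnph1 was low in GF-AOM 4, at 4.47 CPM (next 5.58), the library where Rhox5 was lowest, and Rbfa was low in Control 5, at 26.8 CPM (next 30.9).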

How the results depend on the processing

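Rhox5 kept its direction in all 30 alternatives, with log2 differences of 0.98 to 1.38 for GF-AOMS minus GF-AOM and 0.85 to 1.44 for GF-AOMS minus Control. Leaving out single libraries gave 1.07 to 1.38 and 1.00 to 1.31. Rhox5 was chosen for higher values in GF-AOMS and these fits reuse the same libraries, so the kept direction is no separate support. The ranges show only how far the size moved. GF-AOM minus Control ran from -0.19 to 0.16, was never called, and turned positive with the colon position term (0.16) and without the 4 Control libraries low in Hoxa13 (0.15). Leaving out single libraries gave -0.15 to 0.06, positive without GF-AOM 4 (0.055). The filter of 5 FPKM in 6 libraries kept 7273 genes and dropped Rhox5, so it gave no value.

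Counts of calls depended on the setting. For GF-AOMS minus GF-AOM, DESeq2 called 3 genes and the fit without the 5 libraries of TMM under 0.9 called 1, while leaving out single libraries gave 0 to 0. For GF-AOMS minus Control (80 genes) DESeq2 called 375, limma 19 with a pseudocount of 1 and 20 with 0.1, upper quartile scaling 47, library totals 28, and the fit without low-TMM libraries 277. The fit of only the 2 groups, the colon position term and the fit without low-Hoxa13 Control libraries each called 0, and leaving out single libraries gave 0 to 493. The count was 493 without Control 2, 51, 40, 39, 34, 31, 16 and 2 without GF-AOMS 3, GF-AOM 5, 6, 2 and 3, Control 5 and GF-AOMS 1 in that order, and 0 without any 1 of Control 3, 4 and 6 and GF-AOMS 2, 4, 5 and 6. For list members in that comparison (6, X-linked genes not counted), DESeq2 called 18, limma 0 with either pseudocount, library totals 3, the fit without low-TMM libraries 12, and the fit of 2 groups, the colon position term and the fit without low-Hoxa13 libraries 0, and single libraries gave 0 to 19. For GF-AOM minus Control (1 gene) DESeq2 called 284, the fit without low-TMM libraries 132, and limma with either pseudocount, library totals, the fit of 2 groups and the colon position term 0, and single libraries gave 0 to 356, highest without Control 2. List members there (0) were 13 with DESeq2, 10 without low-TMM libraries and 0 to 16 without single libraries. The cause was not tested. Of the other alternatives for single named genes, 2603 were labelled the same, 145 lost a call and 4 moved. For genes called in the main fit, the same meant that direction and call were kept. For the other genes it meant a log2 difference closer to the main value than the gene's within-group SD. Sign and call were not checked for them. In 40 of 40 cases the correlations with Rhox5 kept their sign.

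The labels give the groups the same replicate numbers. Deviations of same-numbered libraries from their group means correlated at -0.619 to 0.517 over 18 pairs, 7 of them over 0.1. Of the 18 libraries 4 correlated best with their own number. No clear pairing by number was seen, but the check cannot exclude one, since other differences between libraries enter the same deviations. With the number as a replicate block Rhox5 had 1.27 for GF-AOMS minus GF-AOM, 1.17 for GF-AOMS minus Control and -0.10 for GF-AOM minus Control. The block gave 0 called genes for GF-AOMS minus GF-AOM, 33 (2 of them list members) for GF-AOMS minus Control and 2 for GF-AOM minus Control.

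The depth limits Rhox5 to 57 to 296 reads per library, and the nearest libraries of different groups, GF-AOMS 1 and GF-AOM 5, have counting intervals that overlap. The table holds only genes that reached 1 FPKM in at least 15 libraries, so a gene expressed in GF-AOMS alone would have no row. The correlations without GF-AOMS 2 and without the low-TMM libraries were chosen after seeing the data.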
